A study of Oryza sativa with 6 samples.

Results

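The leaf of an unsprayed rice seedling was described here through the miRNAs listed in 3 small RNA libraries, CK 1, CK 2 and CK 3, out of the 6 libraries of the series. CK plants were unsprayed seedlings of CA21, a glyphosate-tolerant rice that carries no transgene and that was bred by radiation and EMS mutagenesis of Zhejing30 followed by crosses with P1003. They belonged to the same experiment as seedlings sprayed with glyphosate at the third-leaf stage, whose libraries were not used. The description thus rests on 1 variety, and how many plants went into a library was not stated. All 479 miRNA names of the table were kept after 103 exact repeats among 582 rows were dropped. Of these names, 283 were above 0 in all 3 CK libraries, 59 in 2 of them, 66 in 1 and 71 in none.

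Plant miRNAs are cut from folded precursors (hairpins) by a Dicer-like enzyme as a duplex of a 5p arm and a 3p arm. One arm, the guide, is usually kept by an Argonaute protein and directs cleavage or repression of matching mRNAs, while the other is usually lost. In leaves, old families that regulate transcription factors and the silencing machinery itself occur beside young families that are limited to grasses or to rice.

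The sequences that carry most of the signal or that differ between forms of a miRNA are given first, 5′ to 3′, as DNA letters from the table. Capitals mark the seed, bases 2 to 8. The first set shows both arms of MIR168a and MIR530, the hairpins with both arms above 0.5% of the signal.
osa-miR168a-5p: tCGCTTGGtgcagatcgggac
osa-miR168a-3p_L-3: cCCGCCTTgcaccaagtgaat
osa-miR530-5p_R+1: tGCATTTGcacctgcacctac
osa-miR530-3p: aGGTGCAGaggcagatgcaac

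The next set shows miR396 and miR166, whose members differ in seed although they belong to 1 family.
osa-miR396e-5p: tCCACAGGctttcttgaactg
osa-miR396c-5p: tTCCACAGctttcttgaactt
osa-miR166a-3p: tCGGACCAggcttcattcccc
osa-miR166k-3p: tCGGACCAggcttcaatccct
osa-miR166g-3p: tCGGACCAggcttcattcctc
osa-miR166g-3p_L+2R-2: tCTCGGACcaggcttcattcc

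The last set shows miRNAs listed both unchanged and with a shifted end, and the 24-nt miRNAs that led their length class among rice names. In a name, L and R give the bases gained (+) or lost (-) at the 5′ and the 3′ end relative to miRBase.
osa-miR167d-5p: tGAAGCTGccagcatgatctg
osa-miR167d-5p_R+1: tGAAGCTGccagcatgatctga
osa-miR156a: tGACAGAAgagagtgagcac
osa-miR156a_L+1: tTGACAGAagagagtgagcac
osa-miR1862d: aCTAGGTTtgtttattttgggacg
osa-miR1876: aTAAGTGGgtttgtgggctggccc

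Levels are given as the percent that a miRNA took of all values summed in its library, with the mean ± SD over the 3 libraries. The summed values were 136071 in CK 1, 148083 in CK 2 and 164725 in CK 3, which by the size of 1 read in the low values corresponds to about 154436, 168908 and 304753 reads on the listed names, which is not the depth of the whole libraries. CK 3 had the most such reads and the most names above 0, with 370 against 337 in CK 1 and 326 in CK 2. The names assigned to non-rice miRNAs, gma-miR5368_L+3R+2 and gma-miR4995_L+1R+3 (soybean) and peu-miR2916_R-1_2ss6AG21TG (poplar), resemble ribosomal RNA, which was not checked against an rRNA sequence here. The first took 5.79%, 6.38% and 2.32% of CK 1, CK 2 and CK 3, the second 6.002%, 5.72% and 2.33%, and the last 4.77%, 5.90% and 1.87%. CK 3 was thus the low library for each. Of these, only miR5368 was on the list of tRNA- or rRNA-like families, and the other pair was added after its values were seen. With them the list held 6 names, which took 16.7%, 18.2% and 6.58% of the libraries. The leaf label could be checked only through miRNAs of other tissues. miR2118 and miR2275, which trigger phasiRNAs in reproductive organs, together took 0.0936%, 0.0944% and 0.0604%. Most of this was osa-MIR2118e-p5_2ss13TA19CT, which is not a mature trigger, and the listed miR2275 name was at 0 in all 3 libraries.

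The signal was concentrated in few families. Joined by number over arms, forms and species, the 385 numbered names formed 139 families, of which 13 were at 0 in every CK library. On average, just over 50% of the signal was held by 4 families and 90% by 23, while 94 were under 0.1%, including those at 0. The 4 took 46.7% without CK 3 and 48.7% with the median over libraries, and 5 families were then needed for 50%. The 10 most abundant took 73.3%, 74.8% and 75.5% of CK 1, CK 2 and CK 3. Of single names, 7 held 50% and 58 held 90%.

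**Figure D1:**
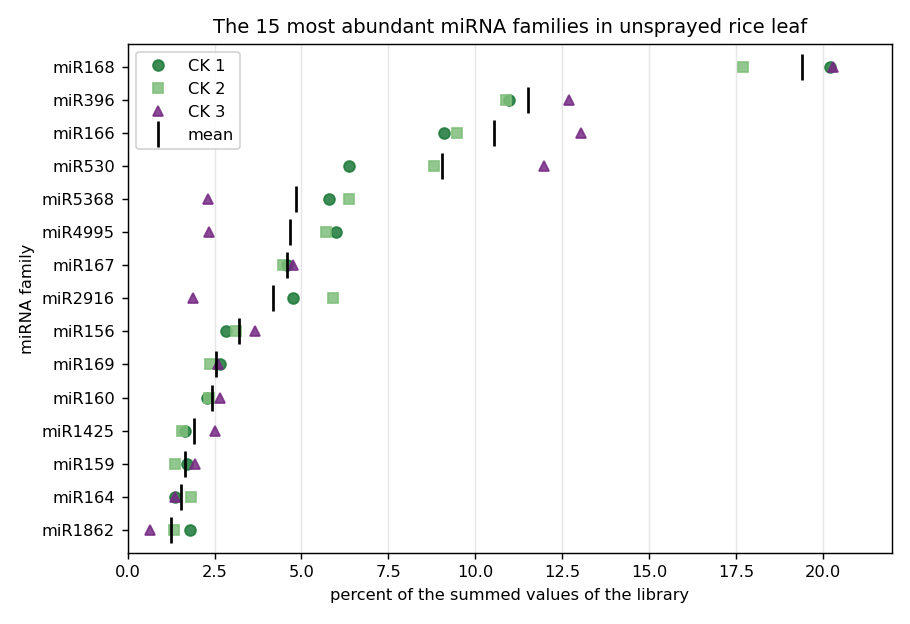
Percent of the summed values (horizontal axis) taken by each of the 15 most abundant families (vertical axis) in CK 1, CK 2 and CK 3, with the mean as a bar. miR168 lies above all other families in every library, miR396, miR166 and miR530 follow, and CK 3 lies apart from CK 1 and CK 2 for miR5368, miR4995, miR2916 and miR1862.

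The family at the top was miR168, which guides the cleavage of the mRNA of AGO1, the main Argonaute of the miRNA pathway. It took 20.2%, 17.7% and 20.3% of CK 1, CK 2 and CK 3 (19.4% ± 1.46, SD, n = 3). Its lead over the next family held in each library. Of the family, 75.3% was osa-miR168a-3p_L-3, which is not from the arm that targets AGO1. Whether reads that match several loci had been divided among them was not stated, and its part in the family order was not tested. The other family that acts on the silencing machinery, miR162, which targets DCL1, reached 0.9996% ± 0.12 and rank 18. miR396, which represses growth-regulating factors, took 11.0%, 10.9% and 12.7%. Nearly all of it was 1 name, osa-miR396e-5p, with 94.8% of the family. osa-miR396c-5p had 0.447% ± 0.00673 of the signal.

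miR166, the regulator of HD-ZIP III genes that set leaf polarity, took 9.10%, 9.47% and 13.0%. It lay under miR396 in CK 1 and CK 2 and above it in CK 3, so their order did not hold across libraries. Of its 17 names, 15 were above 0 in all 3 libraries. osa-miR166a-3p led with 6.08% ± 1.19, followed by osa-miR166k-3p with 1.48% ± 0.348. Together, 5 sequences with the seed CGGACCA took 8.75% ± 1.88, and osa-miR166g-3p_L+2R-2, with the seed CTCGGAC, took 1.17% ± 0.123.

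The family of miR530, known in rice for a target gene that affects grain and panicle traits, ranked 4 in each library. It took 6.38%, 8.81% and 11.97%, a wider spread than that of miR396. Its main name, osa-miR530-5p_R+1, went from 5.63% in CK 1 to 7.91% in CK 2 and 11.0% in CK 3. The family exceeded every family below it in all 3 libraries.

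Below these, families followed each other closely. Of 14 neighbouring pairs among the 15 most abundant families, 5 kept their order in all 3 libraries. With 3 libraries an exact paired permutation test cannot give a two-sided p under 0.25, so no p-values are given for the order. Leaving out the rRNA-like names, the next family was miR167, which acts on auxin response factors, with 4.58%, 4.46% and 4.75% and 18 names, each above 0 in at least 1 library. miR156, which represses SPL genes and marks the juvenile phase, took 2.82%, 3.11% and 3.65%. miR172, which targets AP2-like genes and marks the adult phase, took 0.489%, 0.525% and 0.515%, so that miR156 lay above it in each library. miR169, which targets NF-YA subunits, took 2.55% ± 0.152 over 24 names. Its leading name, osa-MIR169a-p5, held 15.2% of the family, the lowest such share among the 15 families, and it does not carry the miR169 seed AGCCAAG at bases 2 to 8. Counted once each, the 7 sequences with that seed took 0.678% ± 0.0758, with miR1430 included. Most of the miR169 level thus lay in names without this seed. In 9 of the 15 families, 1 name held at least 75%, which for miR5368, miR4995 and miR2916 was the only name.

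miR160, which also targets auxin response factors, took 2.43% ± 0.19, and its abundant 5p names shared the seed GCCTGGC. miR1425, a rice miRNA that targets genes of PPR proteins, took 1.64%, 1.57% and 2.51%, the highest value again in CK 3. miR159, which targets GAMYB-like genes, took 1.66% ± 0.287. miR164, which targets NAC genes, took 1.38%, 1.83% and 1.37%, with osa-miR164a at 81.3% of the family.

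The families that respond to nutrients were low and in part very even. miR399, which rises in plants short of phosphate and targets PHO2, took 0.472%, 0.471% and 0.472%, with its leading sequence counted under both osa-miR399d_R-1 and osa-miR399j_R-1. miR827, another phosphate-responsive family, took 0.227% ± 0.00783. miR395, which rises when sulfate is short, was listed at 0, 0.329 and 0.304 as deposited values, below the size of 1 read. Of the copper-responsive families, miR528 took 0.549% ± 0.0437, miR397 0.472% ± 0.071 and miR408 0.143% ± 0.0158. miR398, which targets copper/zinc superoxide dismutases, had values of 10.6, 0 and 8.65, all from osa-miR398b, and its other 2 names were listed at 0. Over these lists, 7 of 11 nutrient names and 7 of 13 copper names were above 0 in all 3 libraries, against 283 of 479 over all names.

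Some families of regulators stood between. miR162 was followed by miR171, which targets GRAS genes, with 0.761% ± 0.0663, and by miR393, which targets auxin receptors, with 0.757% ± 0.0879. In miR393 the 3p arm had the higher name, osa-miR393b-3p at 0.441% ± 0.0606 against 0.316% ± 0.0275 for osa-miR393a. These names belong to different hairpins, so they do not compare the arms of a hairpin. miR535 took 0.645% ± 0.106, miR394 0.634% ± 0.163 and miR390, which triggers tasiRNAs that act on auxin response factors, 0.434% ± 0.0582. No name of miR444 or miR403 was among those analysed here.

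Both arms were listed for 74 hairpins, taking a hairpin as the species, number and letter of a name. The 5p arm led in 37, the 3p arm in 34, and in 3 all values were 0. The same arm led in all 3 libraries in 57. With a summed mean value of at least 10, a minimum chosen after the values were seen, 61 hairpins remained. The arms then differed by a median of 5.52-fold, and by 10-fold or more in 31.

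**Figure D2:**
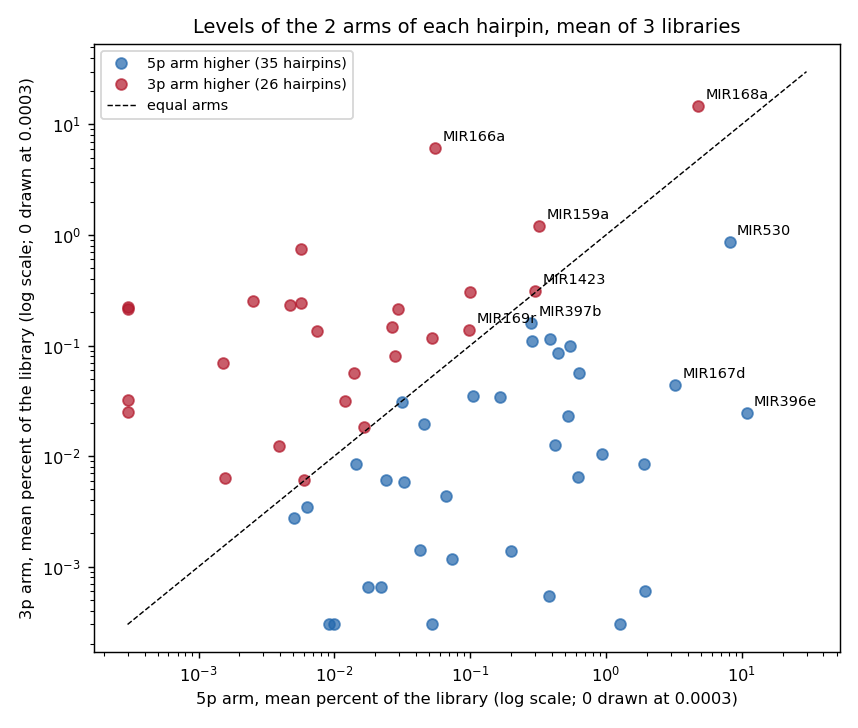
Mean percent of the 5p arm (horizontal axis) against the 3p arm (vertical axis), both on log scales, for 61 hairpins with a summed mean value of at least 10, coloured by the higher arm, with arms at 0 drawn on the edge. MIR168a lies above the line of equal arms at 4.78% against 14.6%, while MIR396e and MIR167d lie far below it.

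Where a guide arm was known, it mostly led. Among the 39 hairpins of such families that reached the minimum, the guide arm was higher in 34 and the other arm in 5. MIR396e was strongly one-sided, with 99.7%, 99.8% and 99.8% on the 5p arm, its guide. The 3p arm of MIR166a, its guide, held 99.0%, 99.2% and 99.1%, and that of MIR162a 99.4%, 99.4% and 99.0%. MIR1425 was at 99.4%, 99.6% and 99.6% on the 5p arm. For MIR164a the 3p arm and for MIR827 the 5p arm was listed at 0 in all 3 libraries.

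MIR168a went the other way. osa-miR168a-3p_L-3, from the arm opposite to the one that pairs with AGO1, was the most abundant name in each library, with 15.2%, 13.2% and 15.4%. osa-miR168a-5p, the arm that targets AGO1, took 5.005%, 4.46% and 4.87%. The 3p arm thus held 75.2%, 74.8% and 76.0% of the hairpin, a split that moved by about 1 percentage point while the arms did not overlap. The 2 printed sequences could form 17 base pairs when folded against each other, with 1 base left unpaired at the 3′ end of each. MIR530 also had a well-detected opposite arm, osa-miR530-3p at 0.858% ± 0.134, which held 11.3%, 9.89% and 8.25% of the hairpin.

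The other hairpins among the 15 families in which the arm opposite to the guide led were low. MIR169r held 53.3%, 57.4% and 63.1% on its 3p arm, and the Brachypodium-named MIR169f 76.3%, 75.7% and 74.0%, although its 5p entry does not carry the miR169 seed at bases 2 to 8. For MIR159f the arms were nearly even and did not keep their order, with 42.7%, 54.4% and 52.4% on the 5p arm. The remaining case, from outside the 15 families, was MIR2118e, where the p5 sequence is not a mature miRNA. In MIR159a, by contrast, the guide 3p arm led with 81.4%, 75.7% and 78.7%, and its 5p entry was a 19-nt sequence at 0.322% ± 0.0476.

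Among the hairpins with a summed mean value of at least 10, the most even were MIR1847, MIR159f, MIR1423, MIR1851 and MIR169r, with mean levels of the arms within 1.41-fold of each other. Of these only MIR1423, a rice hairpin with 24-nt sequences on both arms, was above 0.5% in sum. Its 5p share was 48.2% and 45.9% in CK 1 and CK 2 and 56.6% in CK 3, so the leading arm changed between libraries. In MIR397b, whose guide pairs with laccase mRNAs, the 5p arm led with 66.6%, 68.0% and 58.6%. Entries named by position (p5 or p3) were counted on the arm in their name, whether or not they are the mature sequence of that arm.

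The 122 names with an unchanged miRBase sequence took 43.0%, 42.1% and 48.0% of CK 1, CK 2 and CK 3. The 84 end-shifted names took 42.2%, 42.9% and 41.1%, nearly as much with fewer names. The rest was in 118 sequences from arms without a miRBase name (6.57% ± 0.298), 61 names with substitutions (5.99% ± 1.96) and 94 predicted miRNAs (1.01% ± 0.283). In CK 3, names with substitutions were at 3.81% against 6.56% in CK 1 and 7.61% in CK 2. Poplar-named miR2916 alone was 1.87%, 4.77% and 5.90% of these libraries. Without the rRNA-like names, the unchanged names took 51.5% and the end-shifted ones 37.7% on average.

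**Figure D3:**
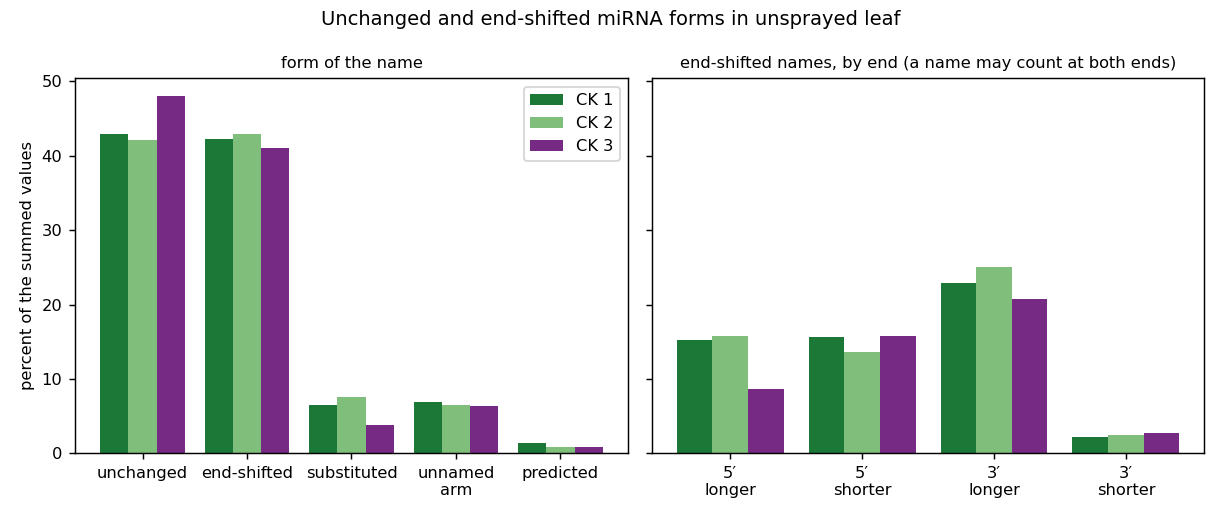
Percent of the summed values (vertical axis) by form of the name (left) and, for end-shifted names, by which end was longer or shorter (right), in CK 1, CK 2 and CK 3. Unchanged and end-shifted names stand near each other, at 44.4% and 42.1% on average.

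Among end-shifted names, a moved 5′ end carries a moved seed. The 46 names with a moved 5′ end took 30.9%, 29.5% and 24.5%, of which osa-miR168a-3p_L-3 alone was 14.6% ± 1.19. Without it the others took 15.7%, 16.3% and 9.05%, and the soybean-named pair made up most of that. The 38 names with the 5′ end kept took 11.3%, 13.4% and 16.6%, of which 18 names with exactly 1 base added at the 3′ end took 9.90%, 11.97% and 15.2%. Longer 3′ ends were commoner than shorter ones, with 22.9% ± 2.18 in 45 names against 2.47% ± 0.281 in 23. Without miR5368 and miR4995, which were taken out after the values were seen, the longer ones took 11.05%, 13.02% and 16.1% of CK 1, CK 2 and CK 3 in 43 names, still above the shorter ones and highest in CK 3. Of the 27 names with a gain of 1 base at the 3′ end, 10 ended in T, 9 in A, 7 in C and 1 in G. By level, those in C led with 8.39% ± 2.65, nearly all from osa-miR530-5p_R+1, and those in A followed with 4.08% ± 0.135. The added bases were not compared with a genome.

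Most miRNAs were listed in a single form, 214 of 224, so the table rarely lets 2 forms be compared. An unchanged form alone was listed for 117, an end-shifted one without the unchanged form for 75, and both for 5. The shifted form was the higher in 3 of these 5. osa-miR167d-5p_R+1 took 3.08%, 3.03% and 2.83% against 0.251%, 0.259% and 0.281% for osa-miR167d-5p, a ratio of 12.3, 11.7 and 10.1. This pair shares its seed, and the added 3′ base makes a 22-nt miRNA.

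osa-miR156a_L+1 took 1.61%, 1.72% and 1.83% against 0.221%, 0.226% and 0.247% for the 20-nt osa-miR156a, a ratio of 7.26, 7.63 and 7.43. Its extra 5′ base shifts the seed from GACAGAA to TGACAGA. For osa-miR166g-3p_L+2R-2 the ratio to the unchanged form was 1.81, 1.81 and 1.58. The forms did not overlap in any of these pairs. Whether reads of both forms of a pair, as also for miR167d-5p, had been divided among as many loci was not stated. Its part in the ratios was not tested. In the other direction, osa-miR164a_L+1 had 0.0238 times the level of osa-miR164a, and osa-miR1862a_L+1R-1 had 0.0118 times that of osa-miR1862a, from values under 5 reads per library. The other shifted names among the 8 most abundant, for miR168a-3p, miR530-5p, miR5368, miR4995 and osa-miR1432-5p_R+1 (0.678% ± 0.0789), had no unchanged form listed.

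Length sorted the miRNAs further. In plants the 21-nt class is mainly made by DCL1 and often starts with U, which is read as T here, while long miRNAs of 24 nt are made by DCL3 and are mostly bound by AGO4 clade proteins that prefer a first A. The 201 names of 21 nt were 42.0% of all names and took 64.3%, 64.8% and 78.4% of the signal. The 140 names of 24 nt were 29.2% of names and took 15.2%, 13.99% and 6.99%. The 70 names of 22 nt took 11.2%, 12.2% and 8.73%, of which poplar-named miR2916 was 4.77%, 5.90% and 1.87%. The other 69 took 6.44%, 6.26% and 6.86% of the whole libraries. With the 6 tRNA- or rRNA-like names also out of the total, they took 7.74%, 7.65% and 7.35%, with CK 3 still the lowest. Those of 25 nt took 6.08%, 5.77% and 2.35%, which was mostly soybean-named miR4995. Each other length was at 2% or less. Of the 20 most abundant names, 15 were 21 nt long and 16 started with T.

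**Figure D4:**
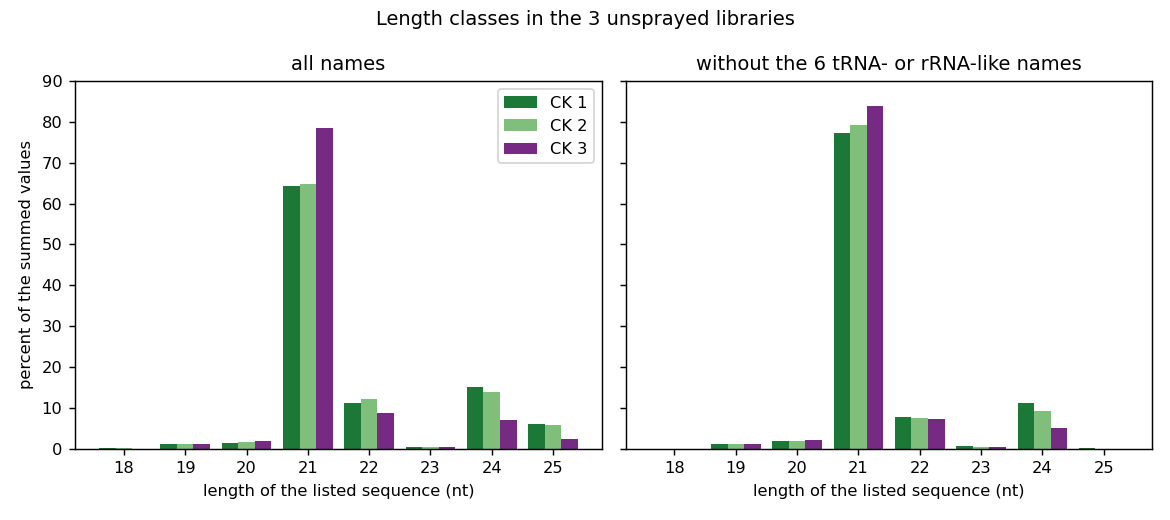
Percent of the summed values (vertical axis) by sequence length in nt (horizontal axis) in CK 1, CK 2 and CK 3, for all names (left) and without the 6 tRNA- or rRNA-like names (right). The 21-nt class is highest in CK 3 and the 24-nt class lowest in CK 3 in both panels.

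First bases were counted within each length class. Within 21 nt, sequences that start with T took 70.2%, 73.3% and 74.3% of the class, and 52.2% of its names. A start with C took 24.3%, 21.1% and 20.3%, nearly all from osa-miR168a-3p_L-3. Within 24 nt, a first A took 80.0%, 81.1% and 74.2% of the level and 62.9% of the names. About as much as all other first-A names together came from the rRNA-like miR5368, and without it a first A took 67.6%, 65.2% and 61.4% of the level, near the 62.6% of names. A first T took 4.801%, 4.12% and 5.79% there. The 20-nt class was 92.2% ± 0.0882 T by level.

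Leading 24-nt names of rice were osa-miR1862d, at 1.56%, 1.15% and 0.529%, osa-miR1876, at 0.674%, 0.863% and 0.454%, and osa-miR2873a, at 0.783%, 0.394% and 0.290%. These are long rice miRNAs, and CK 3 was the lowest library for each. The 3 names of MIR820, a family carried by transposons, shared 1 sequence whose value was repeated under each name, at 0.439%, 0.382% and 0.266%. The soybean-named miR5368 was the highest 24-nt name of all.

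CK 3 stood apart from CK 1 and CK 2 in the 24-nt class. Among 59 names of 24 nt with a value of at least 10 in every library, CK 3 was the lowest in 52, and the median ratio of CK 3 to the mean of CK 1 and CK 2 was 0.545. Among 96 names of 21 nt, CK 3 was the lowest in 9 and the highest in 53, and the median ratio was 1.10. As deposited values, before the percent was taken, the ratios were 0.632 and 1.28. Without the 6 tRNA- or rRNA-like names the 24-nt class took 11.3%, 9.30% and 5.01% and the 21-nt class 77.3%, 79.2% and 83.9%, so CK 3 kept its place. The lower rRNA-like level of CK 3 and its larger number of reads on listed names moved with this difference, and their part in it was not tested.

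**Figure D5:**
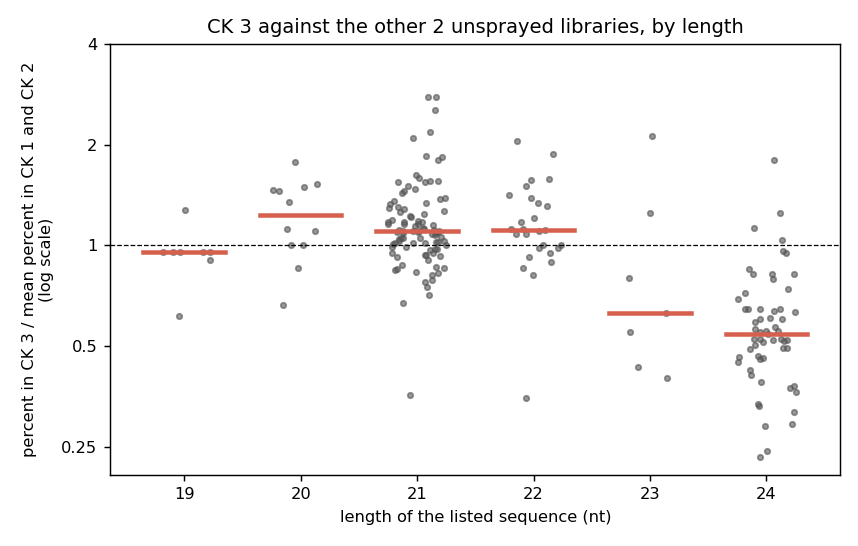
Ratio of the percent in CK 3 to the mean percent in CK 1 and CK 2 (vertical axis, log scale) for each name with a value of at least 10 in all libraries, by length from 19 to 24 nt (horizontal axis), with the median as a bar. The 24-nt names centre on 0.545 and the 21-nt names on 1.10.

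Spread between the libraries was measured for the 213 names with a value of at least 10 in all 3, as the coefficient of variation (CV, SD over mean) of the percent. The median CV was 22.7% (quartiles 11.6% and 34.5%). It was 27.1% for the 105 names with a mean value under 100, 14.3% for the 85 from 100 to under 1000 and 15.1% for the 23 at 1000 or more. By length the median was 15.7% for 21 nt and 35.2% for 24 nt. Leaving out CK 3 brought the median over all lengths down to 12.8%. In pairs, the median difference was 0.26 on the log2 scale between CK 1 and CK 2, 0.45 between CK 1 and CK 3 and 0.38 between CK 2 and CK 3. More than 2-fold differences were seen in 9, 51 and 26 of the 213 names. The log2 levels correlated at 0.982, 0.945 and 0.963 (Pearson's r across names, which are not replicates).

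The least variable names were osa-miR399d_R-1 and osa-miR399j_R-1, which share 1 sequence (CV 0.369%), PC-3p-12124_523 (1.33%), osa-miR396c-5p (1.51%) and osa-MIR5794-p3 (2.06%). osa-MIR5794-p3 was abundant as well, at 1.10%, 1.14% and 1.14%. At the other end stood PC-5p-550_3155 (65.0%), osa-MIR1862d-p5 (65.0%) and osa-miR5150-5p (63.1%), all of 24 nt and lowest in CK 3. gma-miR166p_R+1, whose sequence is also listed as gma-miR166m_L+1_1ss21CA, was the exception (64.4%), with 0.173%, 0.153% and 0.451%. Among the 15 families, miR167 was the most even, at 3.22%, and miR2916 the least, at 49.8%.

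Predicted miRNAs were many but low. The 94 predicted names took 1.33%, 0.901% and 0.802%, 71 were above 0 in some library and 42 in all 3. Of them 50 were 24 nt long and 22 were 21 nt. The highest was PC-5p-7586_652, at 0.212%, 0.173% and 0.123%, followed by PC-5p-550_3155 at 0.104% ± 0.0679, PC-3p-12124_523 at 0.0936% ± 0.00125, PC-5p-42207_188 at 0.0519% ± 0.0153 and PC-3p-21243_374 at 0.0518% ± 0.0221. The 52 names from other species took 18.2%, 19.5% and 8.89%, but 1.65%, 1.49% and 2.37% without the 3 rRNA-like ones.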

How the data were processed

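Small RNA was sequenced by the authors from rice leaves (TruSeq small RNA kit, single-end, Illumina). They trimmed adaptors, dropped reads shorter than 18 nt, matched reads to other RNA classes with ACGT101-miR and assigned them to miRBase 20 precursors. Adaptor ligation depends on sequence, so levels of different sequences are less comparable than levels of 1 sequence across libraries. The deposited signal values are normalized counts per the file headers, and their method of scaling was not stated in the paper, labels or file.

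Of values under 60, 78.5% to 83.5% per library were whole multiples of 1 read (tolerance 0.01), so no count model was used. Few names lay under 5 reads, so a listed 0 may hide reads. Names that share a sequence (43 names, 18 sequences) carry the same value each, and each name was added to its family sum. Values below the size of 1 read were also listed, as for miR395. Whether reads had been divided among matching loci was not stated, so repeated counting of a shared sequence in family sums was not settled. Percents were computed with Python 3.11.15 and pandas 2.3.3, and pairing with RNAduplex of ViennaRNA 2.7.2. The calculations were tested on simulated data. Arms came from the name or, for a mature name without one, from the known guide arm of its family. Named were the 15 families and 20 names with the highest mean percent, the extremes of spread, arm balance and end shifts, and the leading predicted and 24-nt names. Members and lists were chosen with earlier results of these data known. The labels do not say whether libraries came from separate plants, so SDs may be technical. No reference genome was used. The other hairpins given as examples of arm balance were chosen after their values were seen. Alternatives left out each library, tRNA- or rRNA-like names, substituted names or names of other species, changed the minimum of 10 for the CV, filtered low values, left out predicted names, counted each sequence once, rescaled by median ratios, averaged deposited values or took the median over libraries.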

Additional observations from a re-analysis of the deposited data

How the results depend on the processing

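No paired analysis was possible because only 1 group was described. Of 132 recomputed values for 10 results, 114 stayed within 1 SD of the 3 libraries (or within 1.5 times, for counts) and 18 moved. For the median CV, the SD was taken over the median CVs of the pairs of libraries. miR168, miR396, miR166 and miR530 kept this order of mean level in every alternative. None of the alternatives allowed for a division of reads among matching loci. Without the tRNA- or rRNA-like families of the list and miR4995 and miR2916 (chosen after seeing the data), the share of miR168 was 22.5%, of the 10 most abundant families 77.4%, of unchanged names 51.5%, of end-shifted names 37.7% and of 21-nt names 80.1%. With rice and predicted names only, these were 23.0%, 76.9%, 52.5%, 37.9% and 80.9%. Leaving out the families of the list alone gave 75.9% for the 10 families and 39.1% for end-shifted names, and leaving out substitutions 76.6% and 44.8%. The median over libraries gave 43.9% for end-shifted names. Names with a value of 10 or more left 21 hairpins led by the 5p arm. A minimum of 100 gave a median CV of 14.2%. Leaving out 1 library at a time, the median CV ranged from 12.8% (without CK 3) to 21.4%. In the same way the share of miR168 ranged from 18.9% to 20.2%, of the 10 families from 74.0% to 75.2%, of 21-nt names from 64.6% to 71.6% and of 24-nt names from 10.5% to 14.6%.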
